A study of Mus musculus with 4 samples.

Results

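The non-Hox homeobox genes examined here were the protein-coding genes of GENCODE M21 whose symbols begin with Lhx, Irx, Nkx, Dlx, Msx, Meis, Pbx, Pou, Otx, Pitx, Gsx, Vax or Tlx followed by a digit, with Lhx1 left out. There were 71 such genes in 13 subfamilies, of 21938 protein-coding gene records. Eya1 was precipitated with anti-FLAG beads from the chromatin of E13.5 mouse kidneys, 80 pooled for each assay, in an Eya1 HA-FLAG knockin line on a mixed C57BL/6J and 129/Sv background, and the bound DNA was sequenced (ChIP-seq). The series held 4 samples, namely 2 Eya1 ChIP replicates, 1 input and 1 IgG control. Only the peak lists of the 2 Eya1 replicates, with 8452 peaks between them, were analysed here. No untagged or Eya1-deficient embryos were analysed here, and whole kidneys mix progenitor, epithelial, stromal and other cells. The lists hold positions without heights, read counts or expression values, so the depth behind a peak is unknown and the tissue label was not checked against marker genes.

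Homeobox genes encode transcription factors that bind DNA through a homeodomain and pattern the embryo. Meis and Pbx proteins belong to the TALE class, which carries extra residues in a loop of the homeodomain. They pair with each other and with Hox proteins on DNA. Lhx proteins add LIM domains, and Pou proteins add a POU-specific domain to the homeodomain. Most of the other subfamilies are best known outside the kidney: Nkx in thyroid, heart and neural tube, Dlx and Msx in face and limb, Otx, Gsx and Vax in forebrain and eye, Pitx in pituitary and limb, and Tlx in spleen and sensory neurons. Irx genes are known in the kidney for patterning a middle segment of the nephron tubule. Pou2af1 met the symbol rule although it encodes a coactivator of POU proteins without a homeodomain. It had no peak within 1 kb, so the counts of genes with a promoter peak are the same without it. Eya1 itself is a cofactor and phosphatase that is brought to DNA by homeodomain partners such as Six2 and is required for kidney formation.

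Few of the 71 promoters carried an Eya1 peak, and those that did were mostly Meis and Pbx genes. A promoter peak is a peak whose interval reaches within 1 kb of any annotated transcription start site (TSS) of the gene. A peak was present in either list at 8 genes, which is 11.3% (exact Clopper-Pearson 95% interval 4.99% to 21%), against 23.5% of all protein-coding genes. The replicate 1 list had a peak at 8 members (11.3%, interval 4.99% to 21%, against 20.3% of all genes). The replicate 2 list had one at 7 members (9.86%, 4.06% to 19.3%, against 14.7%). Overlapping peaks of both lists, called shared, were present at 6 members (8.45%, 3.17% to 17.5%, against 11.3%). For replicate 1, replicate 2 and shared peaks the interval takes in the share of all genes, and for either list it does not. The intervals cover counting error over genes only, and genes of a subfamily share ancestry and are not replicates.

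CpG content of the promoters was compared because the share of genes with a peak rose steeply with it. CpG dinucleotides were counted in 1 kb centred on each TSS, with the highest count taken for each gene. The TSS with the highest count need not be the TSS at the peak. Members were richer in CpG than genes at large, with a median count of 69 against 50, and ranged from 15 at Pou1f1, a pituitary factor, to 147 at Pbx3. Among non-members the share with a peak in either list went from 0.052% in the lowest decile of CpG count to 63.9% in the highest. Weighting the share of each decile by the number of members in it gave a CpG-matched background of 34.9%, or 24.8 genes, where 8 were found. The same background was 21.4 genes for replicate 1, 15.1 for replicate 2 and 11.6 for shared peaks, where 8, 7 and 6 were found. For shared peaks this background, 16.35%, lay inside the interval of the members' share (3.17% to 17.5%). For either list, replicate 1 (30.1%) and replicate 2 (21.3%) it lay above the interval. In the 3 upper deciles, with at least 71 CpG, 3 of 33 members had a peak, against 52.9% of non-member genes. Within the members CpG did not order the genes in this way, since the median was 66.5 for the 8 with a peak and 69 for the 63 without.

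**Figure D1:**
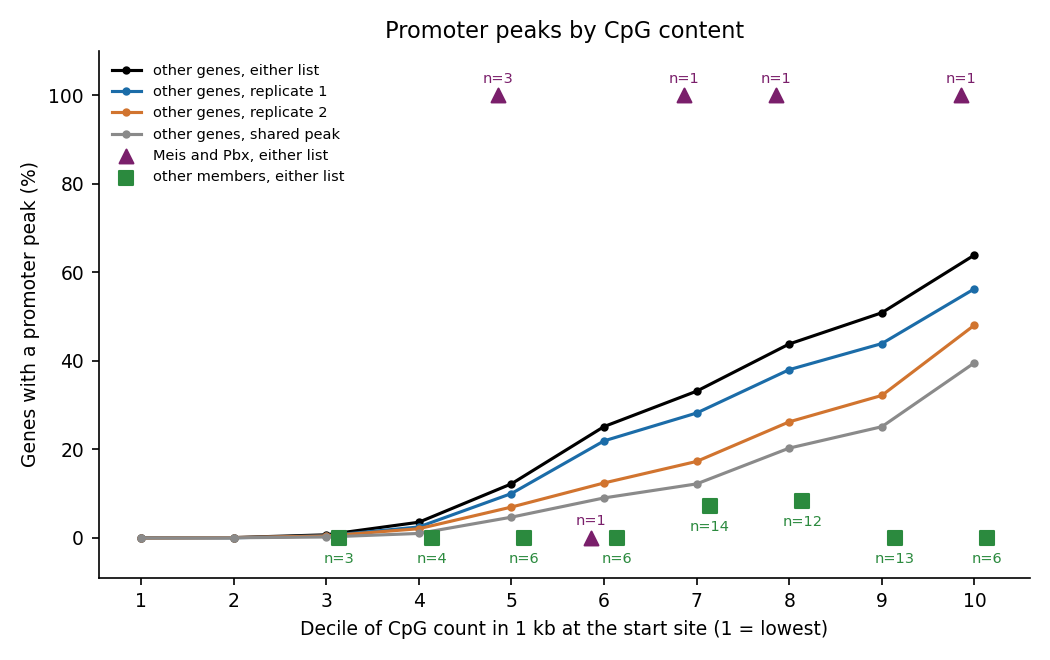
Percent of genes with an Eya1 peak within 1 kb of a TSS (vertical axis) by decile of CpG count (horizontal axis), as lines for non-member genes in each list and as symbols for the members with a peak in either list, with the number of members in each decile. The lines climb to 63.9% for either list in the top decile, while members other than Meis and Pbx stay at 0 in that decile and the Meis and Pbx genes sit at 100% in each decile they occupy, apart from decile 6.

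By subfamily, a promoter peak was found at 3 of 3 Meis genes, 3 of 4 Pbx genes, 1 of 7 Lhx genes and 1 of 16 Pou genes. The other 9 subfamilies, Irx, Nkx, Dlx, Msx, Otx, Pitx, Gsx, Vax and Tlx, had 0 of 41, which allows a share of up to 7.32% when a count of 0 is taken to allow 3 (exact Clopper-Pearson upper bound 8.60%), against a CpG-standardised 15.4 genes (37.6%). Most of those subfamilies are too small to be read on their own, since 0 of 6 Irx or Dlx genes allows a share of up to 50% by the same limit of 3 counts (exact upper bound 45.9%), and 0 of 14 Nkx genes one of up to 21.4% (23.2%). Meis and Pbx together had 6 of 7 (85.7%, 95% interval 42.1% to 99.6%), where the CpG-standardised background was 2.03 genes. The remaining members had 2 of 64 (3.12%, 0.381% to 10.8%), where it was 22.7 genes. Of 31 members outside Meis and Pbx with at least 71 CpG, 1 had a peak, and it was Lhx3. The highest count of Lhx3, 81, was at another start site, and the start site that its peaks covered had 23 CpG. The Meis and Pbx grouping and the grouping of the 9 subfamilies were made after these values were seen, and the difference between them was not tested.

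**Figure D2:**
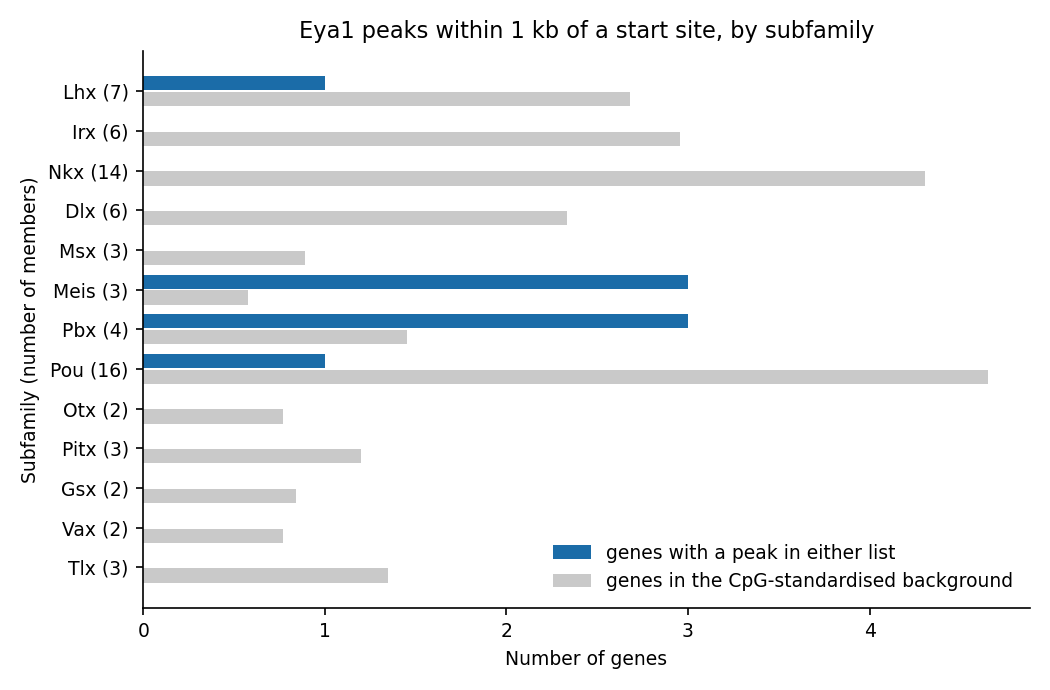
Number of genes with an Eya1 promoter peak in either list (blue bars) and the number in the CpG-standardised background (grey bars) for each subfamily, with the number of members in brackets. The blue bar exceeds the grey bar for Meis (3 against 0.576) and Pbx (3 against 1.45) and is shorter or absent in the other subfamilies.

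The number of annotated start sites moved with the same result. Members with a promoter peak had a median of 7 TSSs and those without a median of 2. The Meis and Pbx genes had a median of 8, from 5 to 16, and their CpG-standardised background did not take this into account. A peak was present at 0 of 22 members with 1 TSS, 1 of 26 with 2 to 3 and 7 of 23 with 4 or more, against 8.50%, 16.2% and 35.7% of other genes. Standardising by CpG count and number of TSSs together gave 31.6% for either list, where 11.3% of members had a peak. How far the number of start sites contributes to the split between subfamilies was not tested. Counting only the 5 prime end of each gene, a shared peak remained at 2 of 71 members, of which Lhx3 was 1, against 10.2% of all genes, and a peak in either list at 6 of 71, against 21.5%.

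Pbx2, which lies beside Gpsm3 on chromosome 17, had a replicate 1 peak of 1489 bp at chr17:34591740-34593228. This peak overlapped both genes and lay over untranslated and coding exons, which were not assigned to either gene. The replicate 2 peak of Pbx2, 239 bp at chr17:34592391-34592629, lay inside it, 105 bp upstream of an internal TSS. Pbx3 had peaks in replicate 1 at chr2:34370760-34371933 and chr2:34372105-34372822, in the first exons and in an intron. The second of them was the CpG-densest promoter peak at any member, with 15.0 CpG per 100 bp. In replicate 2 a peak of 144 bp at chr2:34371835-34371978 overlapped the first of them and covered a TSS.

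Meis2 had the most peaks of any member. Its replicate 1 peak at chr2:116060276-116064326 was 4051 bp wide, wider than 99.8% of its list, and held 3 of the 4 replicate 2 promoter peaks, at chr2:116062653-116062928, chr2:116063047-116063273 and chr2:116063911-116064030. A further replicate 1 peak of 614 bp, chr2:116064484-116065097, covered other start sites of the gene and overlapped no replicate 2 peak. The fourth replicate 2 peak, chr2:116066814-116066930, lay 975 bp upstream of the 5 prime end, in an intron of the lincRNA 2700033N17Rik. Just outside the 1 kb window, upstream of Meis2, stood replicate 1 and replicate 2 peaks that overlap each other, at 1797 and 2063 bp, and a replicate 2 peak at 3596 bp.

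Meis1, a gene of haematopoietic and limb development, had peaks in both lists that did not meet. The replicate 1 peak at chr11:19013749-19015293, 1545 bp over coding exons, lay 996 bp downstream of a TSS, so it was just inside the 1 kb window. It also reaches within 1 kb of a start of the antisense transcript Gm16141. The replicate 2 peaks were narrow, at chr11:19016709-19016846 in an intron 420 bp upstream of that TSS and at chr11:19019868-19019994 in intergenic sequence 883 bp upstream of the 5 prime end. At Meis3 the peaks marked an internal start rather than the 5 prime end. The replicate 1 peak chr7:16183385-16184611 (1227 bp) and the replicate 2 peak chr7:16183820-16184024 (205 bp) overlapped at a TSS 9000 bp inside the gene, which starts a transcript not annotated as coding. Widths of member promoter peaks ran from 501 to 4051 bp in replicate 1 (median 1200, against 1069 for the list) and from 117 to 276 bp in replicate 2 (median 179, against 188).

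**Figure D3:**
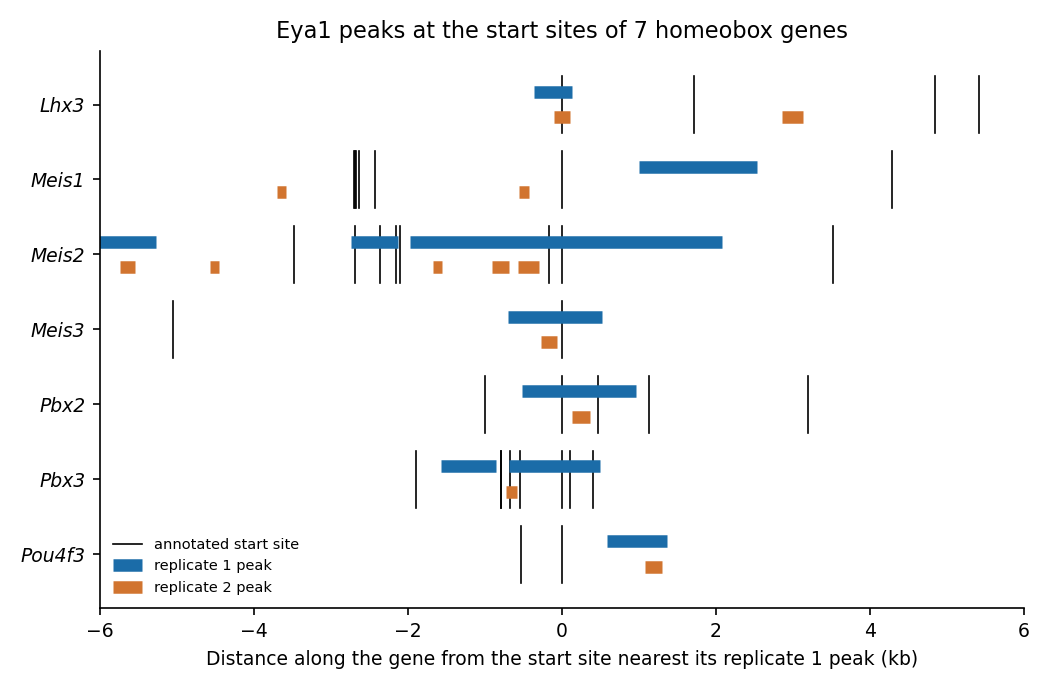
Peaks of replicate 1 (blue) and replicate 2 (orange) at 7 members with a promoter peak, drawn to scale along each gene in kb from the TSS nearest its first replicate 1 peak, with annotated start sites as black ticks. The lists overlap at 6 of these genes, at Pou4f3 with the replicate 2 peak just outside the 1 kb window, the Meis1 peaks of replicate 1 and replicate 2 stand on opposite sides of the TSS, and peaks and ticks beyond 6 kb are not drawn.

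The letters under these peaks differ widely in CpG content. The replicate 2 peaks at Meis1 are shown because they belong to the same gene and differ most, and the exon-free stretch of the Meis3 peak because it holds an RE1 match. A stretch upstream of Pou4f1, a factor of sensory neurons, is shown for contrast, since Pou4f1 had the highest CpG count at its 5 prime end of all members without a promoter peak. Sequences are read from the RefSeq GRCm38 (mm10) assembly on the strand of the gene, with CpG dinucleotides in capitals.
Meis1, intron, chr11:19016709-19016846, minus strand: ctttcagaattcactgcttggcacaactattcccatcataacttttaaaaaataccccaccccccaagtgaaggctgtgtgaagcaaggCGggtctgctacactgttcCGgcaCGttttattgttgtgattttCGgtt
Meis1, intergenic, chr11:19019868-19019994, minus strand: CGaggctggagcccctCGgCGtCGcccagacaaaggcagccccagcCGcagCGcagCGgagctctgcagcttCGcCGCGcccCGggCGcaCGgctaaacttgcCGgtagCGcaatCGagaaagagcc
Meis3, intron, chr7:16183868-16184024, plus strand: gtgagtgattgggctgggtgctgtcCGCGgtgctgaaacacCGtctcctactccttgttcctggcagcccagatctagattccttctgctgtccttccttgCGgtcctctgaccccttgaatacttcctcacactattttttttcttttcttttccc
Pou4f1, upstream, no peak, chr14:104468000-104468199, minus strand: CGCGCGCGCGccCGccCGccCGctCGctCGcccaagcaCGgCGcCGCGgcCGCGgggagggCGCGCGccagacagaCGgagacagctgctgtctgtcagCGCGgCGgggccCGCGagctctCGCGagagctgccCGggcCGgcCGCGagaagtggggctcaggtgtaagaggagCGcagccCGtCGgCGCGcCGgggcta

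The intronic Meis1 peak held 2.90 CpG per 100 bp and the intergenic one 12.6, while the Pou4f1 stretch without a peak held 18.5. Over all member promoter peaks of both lists the density ran from 1.47 at Meis3 in replicate 1 to 15.0 at Pbx3 in replicate 1. Short motifs were searched on both strands in the 300 bases at the 5 prime end of each gene, 250 before it and 50 after. The GC box GGGCGG was present in 66.2% of members, against 43.0% of all protein-coding genes and 65.8% of all genes with a promoter peak. It was in 4 of the 8 members with a peak and in 43 of the 63 without. The homeodomain core TAATTA was present in 1.41% of members, against 5.30% of all genes and 2.37% of those with a peak. The letters TGACAG, which TALE proteins can recognise, were present in 9.86% of members, against 17.6% of all genes. They were in 0 of the 8 members with a peak, against 14.3% of all genes with a peak. These shares were not matched for CpG content. The window searched met no listed peak at Meis1, Meis2, Meis3, Pbx2, Pbx3 and Pou4f3. The shares therefore describe 5 prime ends and not the letters under the peaks. None of these motifs contains another, and a match is a description of these letters and not a site.

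Distances from members without a promoter peak to Eya1 peaks were near those of other genes without one. The distance from the nearest TSS to the nearest peak of either list had a median of 135 kb for the 63 members without a promoter peak, against 119 kb for all genes without one. It was over 100 kb for 37 of them (58.7%, against 54.0% of other such genes), 20 to 100 kb for 17 (27.0%, against 32.9%), and 5 to 20 kb for 7 (11.1%, against 10.8%). The genes just outside the window were Nkx1-1, with peaks of both lists 3685 and 4273 bp upstream, and Pou4f2, a factor of retinal ganglion cells, with peaks of both lists about 5.0 kb downstream of its TSS. All 6 Irx genes were at least 70.6 kb from a peak, and their median was 713.5 kb, the longest of the 13 subfamilies. Their median CpG count of 91.5 was above that of every subfamily but Tlx, at 97. Dlx genes were at least 109 kb away and Otx genes at least 215 kb away. Pou3f3, which acts in the loop of Henle of the kidney, was 402.5 kb from a peak, and Pou3f4, on the X chromosome, was the farthest of all members at 4610 kb.

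**Figure D4:**
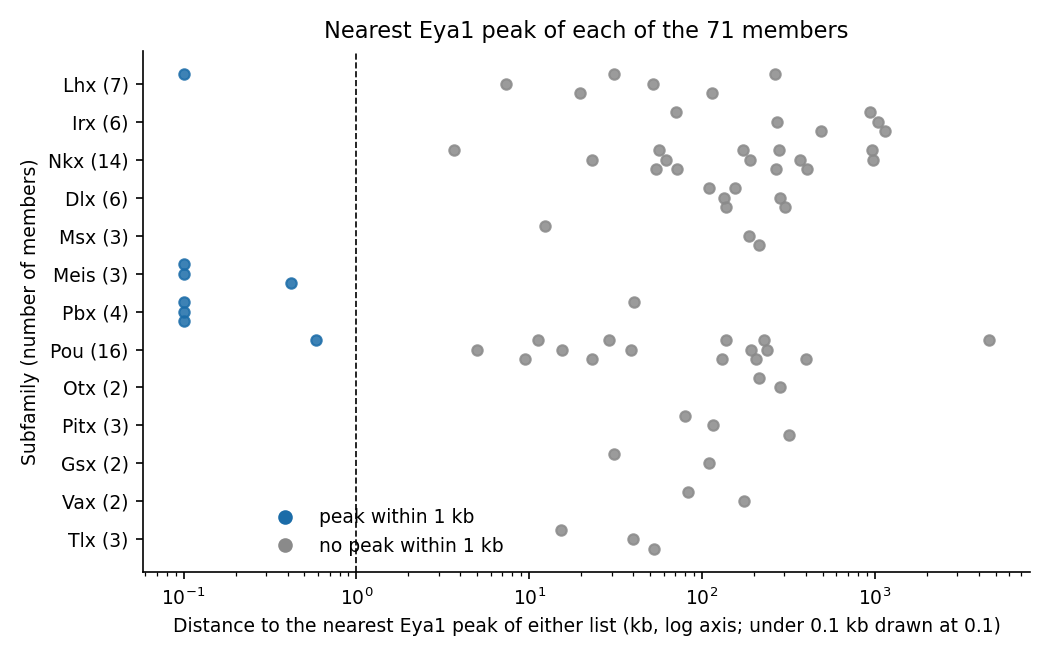
Distance in kb, on a log axis, from each of the 71 members to the nearest Eya1 peak of either list, by subfamily, with distances under 0.1 kb drawn at 0.1 kb and a dashed line at 1 kb. Blue points, the 8 members with a promoter peak, are mostly Meis and Pbx genes, and every Irx gene lies beyond 70 kb.

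A further feature was the RE1 element, which the repressor REST recognises at neuronal genes. Peaks were searched on both strands for 17 bases of the REST consensus with at most 2 mismatches. A match was held by 17.5% of replicate 1 peaks and 17.4% of replicate 2 peaks. Whole peaks were searched, with a median width of 1069 bp in replicate 1 and 188 bp in replicate 2. These shares therefore cover unlike lengths of sequence and are not a measure of agreement between the lists. Within 100 kb of a TSS, 14 of 71 members (19.7%) had such a peak, against 17.8% of all protein-coding genes, so this share was near the background. At the same distance the count was 10 members with at most 1 mismatch, against 6.72% of all genes. With 0 mismatches it was 7 members, against 2.91%. Within 20 kb and with at most 2 mismatches it was 9 members (12.7%, 95% interval 5.96% to 22.7%), against 6.42% of all genes and a CpG-standardised 6.09 genes. With 0 mismatches and within 20 kb it was 6 members (8.45%, 3.17% to 17.5%), against 0.734% of all genes and a CpG-standardised 0.616 genes. The 20 kb distance was chosen after the data were seen, and no test was made of these shares. The 6 genes were Lhx3, Lhx5, Meis3, Pou4f1, Pou4f2 and Pou4f3, so that all 3 Pou4 genes, which are factors of sensory neurons and hair cells, were among them.

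Among the RE1 elements at members other than Pou4f3, 2 of 13 distinct forms recurred at more than 1 member site. The elements without a mismatch, apart from that of Pou4f3, are given with 6 flanking bases on each side, with the 17 bases that match in capitals, on the strand of the element, from GRCm38 (mm10), and the Meis2 element with 1 mismatch is added for comparison.
Lhx3, start site, chr2:26208270-26208298, minus strand: gcctccTTCAGCACCGCGGACAGcgccag
Lhx5, 7.5 kb upstream, chr5:120424180-120424208, plus strand: cgcggcTTCAGCACCGCGGACAGctcccg
Meis3, internal start site, chr7:16183882-16183910, minus strand: cggtgtTTCAGCACCGCGGACAGcaccca
Meis3, 27 kb upstream, chr7:16147819-16147847, plus strand: aggtctTTCAGCACCGCGGACAGcgcccg
Pou3f1, 23 kb upstream, chr4:124633463-124633491, plus strand: actggcTTCAGCACCATGGCCAGtgccca
Pou4f2, 5.1 kb downstream, chr8:78431551-78431579, minus strand: agcaatTTCAGCACCATGGCCAGtaacca
Pou4f1, 11 kb downstream, chr14:104454022-104454050, minus strand: caaaatTTCAGCACCACGGCCAGcgcaag
Meis2, promoter, chr2:116063838-116063866, plus strand: ggaggcTGCAGAACCCCAGCGAGccaacc

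The first form was identical in all 17 bases at 4 member sites, namely Lhx3, Lhx5 and both Meis3 sites, and was present in 14 peaks of replicate 1 and 20 of replicate 2 over the genome. Pou3f1 and Pou4f2 shared the second form, which was in 5 and 7 peaks. The Pou4f1 element had 16 of 17 bases in common with that second form and 15 of 17 with the first. Each of these sites had its own 6 flanking bases on either side. The flanks after the element at the 4 sites of the first form nevertheless shared several bases, beginning with c. The printed elements without a mismatch lay near the middle of the narrow replicate 2 peaks. Their centres were 2.5 bp from the midpoint at Lhx3, 3.0 bp at Lhx5, 6.5 bp at Pou4f2, 5.5 bp at Pou4f1 and 2 bp at Pou3f1. At Meis3 they were 26.0 bp from it at the internal start site and 21.5 bp at the distal site. In replicate 2 peaks, elements with 1 or 2 mismatches lay from 2.5 bp (Pou2f2) to 82.5 bp (the Nkx1-1 site at Maea) from the midpoint. The Meis2 element lay 1551 bp from the midpoint of the 4051 bp replicate 1 peak and in no replicate 2 peak.

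Lhx3, which encodes a LIM-homeodomain factor of pituitary and motor neurons, was the member outside Meis and Pbx with a shared promoter peak. Its replicate 1 peak, chr2:26208152-26208652 (501 bp), and its replicate 2 peak, chr2:26208184-26208389 (206 bp), both covered the 5 prime end and its RE1 match. A replicate 2 peak at chr2:26205150-26205425 in an intron, with an RE1 match of 2 mismatches, lay just outside the window at 1150 bp. Lhx5, a factor of forebrain and spinal cord, had peaks of both lists 7379 and 7404 bp upstream, in an intron of Gm27199. The Pou4f2 peaks of both lists, chr8:78431450-78431635 and chr8:78431488-78431655, were 186 and 168 bp wide and intergenic. The Pou4f1 peak, chr14:104453957-104454104 in an intron of D130079A08Rik, and the Pou3f1 peak, chr4:124633400-124633558 in an intron of Gm2164, were in replicate 2 only. The nearest coding gene to the Pou3f1 peak was 3100002H09Rik, and that to the distal Meis3 peak was Slc8a2, in an intron of which it lies.

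**Figure D5:**
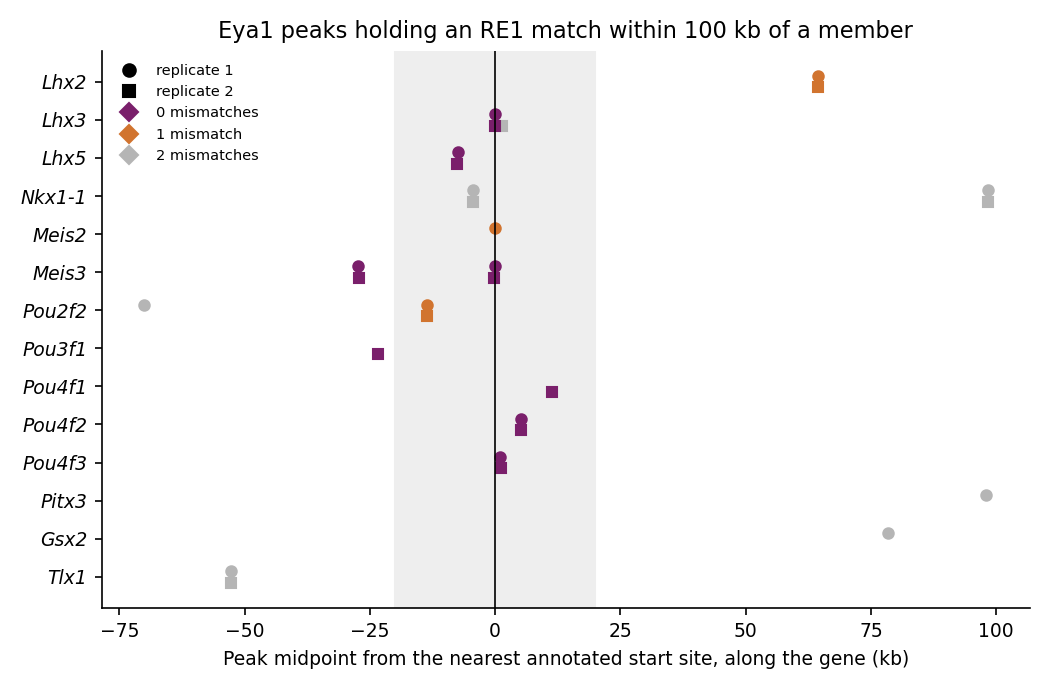
Midpoint of each Eya1 peak that holds an RE1 match, in kb along the gene from the nearest TSS of the member, for replicate 1 (circles) and replicate 2 (squares), coloured by the mismatches of the best match, with the 20 kb window shaded. Matches without a mismatch lie within 20 kb at 6 genes, and those farther out belong to Pou3f1 and to the distal Meis3 site.

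Pou4f3, a factor of inner ear hair cells, was the member with a promoter peak in replicate 1 only. The peak lay at chr18:42395660-42396444, 585 bp downstream of a TSS, over the untranslated and coding exons. The replicate 2 peak inside it, chr18:42396158-42396371, lay 1083 bp from the same TSS and so just outside the window. Both held an RE1 match without a mismatch, with its centre 17.5 bp from the midpoint of the replicate 2 peak. In all, 4 of the 8 members with a promoter peak had an RE1 match in it, Lhx3, Meis2, Meis3 and Pou4f3, against 14.4% of all genes with a promoter peak. No match was found in the promoter peaks of Pbx2, Pbx3 or Meis1.

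The other members with an RE1 peak within 100 kb had 1 or 2 mismatches. Pou2f2, a lymphocyte factor, had intronic peaks of both lists 13222 and 13491 bp from a TSS with 1 mismatch, and Lhx2 intergenic peaks of both lists 64221 and 64241 bp downstream, also with 1 mismatch. Nkx1-1 had its upstream peaks with 2 mismatches and a second site 97615 bp away at the Maea promoter. The sites of Gsx2 and Pitx3, in replicate 1 only, lay at the promoters of Pdgfra and Ldb1, and a second Pou2f2 site lay at that of Erf. The Tlx1 peaks of both lists lay 52.5 kb upstream, where Kazald1 was the nearest coding gene.

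Related genes outside the symbol rule were listed for comparison. Of 20 LIM and TALE relatives and their cofactors, 9 had a promoter peak in either list (45.0%, CpG-standardised background 8.68 genes). Shared peaks were at the TALE genes Pknox1 and Tgif2, the LIM-domain binding cofactor Ldb1 and the corepressors Tle1 and Tle3. Pknox2, Lmo4 and Tle4 had a peak in replicate 1 only and Tgif1 in replicate 2 only. The LIM-homeodomain genes Lhx1, Isl1, Isl2, Lmx1a and Lmx1b had none, with CpG counts from 76 to 104. The TALE gene Mkx, the LIM cofactors Ldb2, Lmo1, Lmo2 and Lmo3 and the corepressor Tle2 also had none. Hox genes had a promoter peak at 16 of 39 (41.0%, background 12.2 genes) and forkhead and Sox genes at 19 of 63 (30.2%, background 25.4 genes). The differences between these sets and the 71 members were not tested.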

How the data were processed

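Per the study's methods, the authors mapped the ChIP-seq reads to mm10 with Bowtie, left at its defaults. They used MACS with several P value limits to call peaks over the input or the IgG library. The paper's own analyses then used the peaks common to both calls. The deposited lists, 1 for each Eya1 replicate, give a chromosome, start and end for each peak, a unit classed as other, with no score, count or p-value. The cutoff and control behind each list are not given in the sources used here, nor whether a deposited list holds the common peaks. The 2 control samples were not analysed here. Because the lists carry no reads, depth and precision of a peak are unknown.

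Samples were grouped by their titles. All peaks lay within GRCm38 chromosome ends, and coordinates were printed 1-based. TSSs were the starts of all GENCODE M21 transcripts of a gene. A shared peak needed 1 bp of overlap between lists inside the 1 kb window. CpG standardisation weighted the non-member share of each of 10 CpG deciles by the members in it. No test across genes was made, since members were chosen by name and genes are not replicates. Named were all members with a shared promoter peak, with a peak in 1 list, with an RE1 peak within 100 kb, or with a nearest peak 1 to 5 kb away, except for an item that is not reported here. The members and lists were chosen with earlier results of these data known. The computation was tested on simulated data and used Python 3.11.15, numpy 2.4.6, scipy 1.17.1, pysam 0.24.0, samtools 1.23.1 and matplotlib 3.10.9. Alternatives varied the window, the start sites, peak width, overlap, the CpG measure and the RE1 distance and mismatches.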

Additional observations from a re-analysis of the deposited data

How the results depend on the processing

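Of 49 alternative values for 7 results, 40 stayed within 1.5 times the reported count, or within the spread between the replicates for a standardised share, and 9 did not. Counting peaks only at the 5 prime end of each gene gave 5 members in replicate 1, 4 in replicate 2 and 2 with a shared peak. The shares of all genes in that setting were 18.7%, 13.2% and 10.2%. Dropping the peaks narrower than their list's median, which uses fewer peaks, gave 4 members in replicate 2 and 3 with a shared peak. The shares of all genes were then 8.77% and 5.22%. The CpG-standardised share for either list was 42.3% with CpG counted in 2 kb. The members with an RE1 peak within 100 kb were 7 with 0 mismatches, against 2.91% of all genes. Within 20 kb, a distance chosen after seeing the data, they were 9, against 6.42%, and 6 with 0 mismatches, against 0.734%. Each of these settings uses fewer sites. Leaving out 1 list gave 7 to 8 members with a promoter peak, against 14.7% to 20.3% of all genes. It gave 11 to 12 members with an RE1 peak within 100 kb, against 9.82% to 14.3%. No paired analysis was possible because the 2 Eya1 lists are replicates of a single group and no test between groups was made. Peak heights and depth are unknown, so a gene without a peak may be below the calling threshold, and the width of replicate 1 peaks, by median 5.69 times that of replicate 2, enters every window count.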
